A study of Mus musculus with 21 samples.

Results

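The 10 genes followed here belong to the Wnt pathway and were measured in the kidneys of mice with adenine-induced chronic kidney disease (CKD). They were chosen by name and matched by symbol to the 20634 genes found in both deposited count tables. Of these, 5 encode secreted ligands (Wnt4, Wnt5a, Wnt7b, Wnt10a and Wnt11), Axin2 and Lef1 act inside the cell, and Dkk3, Sfrp1 and Sfrp2 encode secreted modulators. All mice were female apoE knockout (KO) mice on the C57BL/6J background, a hyperlipidemic strain, so that the controls lacked apoE as well. From 4 weeks of age they received 1 of 3 diets for 14 weeks. The Con group ate chow (5 mice), the Ade group ate chow with adenine, which injures the tubules (6 mice), and the Ade + IMC group ate the adenine diet with iodomethylcholine (IMC), an inhibitor of the bacterial enzyme that makes trimethylamine (6 mice). A Con + IMC group was not analysed here. The comparisons ask how the adenine diet changed these genes and whether IMC altered that change.

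A Wnt ligand binds a Frizzled receptor and an LRP5 or LRP6 co-receptor, which stops the degradation of beta-catenin. Beta-catenin then enters the nucleus and, with TCF/LEF factors, switches on target genes, among them feedback inhibitors of the pathway. Wnt5a and Wnt11 are known mainly for signaling without beta-catenin. In the embryonic kidney Wnt signals drive nephron formation and the growth of the collecting ducts and papilla, and in the adult kidney the pathway is known for its return after injury and in fibrosis.

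Adenine feeding raised 5 of the 10 genes above their Con levels, namely the ligands Wnt4 and Wnt10a, the feedback inhibitor Axin2, the nuclear factor Lef1 and the secreted glycoprotein Dkk3. Of all genes tested, 67.3% passed the threshold (an adjusted p below 0.1) in this comparison and 35.1% were higher. The folds of the 5 genes ran from 2.41 for Lef1 to 8.87 for Wnt4. None of the other 5 passed the threshold. With IMC added to the adenine diet the same 5 genes and Wnt5a were higher than in the Con group, a comparison in which 63.2% of all genes passed and 30.9% were higher. The call of Wnt5a was lost in 2 other fits, with the level of urothelial markers as a covariate (log2 fold change 0.25, edgeR adjusted p = 0.166) and without Con mice 302 and 403 (0.25, edgeR adjusted p = 0.145). Between the Ade + IMC and Ade groups 0 of the 10 genes passed in limma, as did 0% of all genes tested (1 of the 10 and 6.72% of all genes had an unadjusted p below 0.05). Wnt10a was lower in every Ade + IMC mouse than in every Ade mouse, as were 0.0885% of all genes.

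The libraries held 5444833 to 11680809 counts (Con 7716126 to 11680809, Ade 5444833 to 7673215, Ade + IMC 5728589 to 8305968). The kidney injury marker Havcr1 had 1 to 7 counts in the Con, 549 to 2104 in the Ade and 192 to 1580 in the Ade + IMC mice. Markers of the proximal tubule summed to between 9524 and 14501 CPM (a gene's count divided by its library's size in megareads) in the Con mice, in keeping with the labelled tissue, and the 2 of 4 adrenal gland markers found in the files to at most 0.859 CPM in any mouse. Fat cell markers summed to 0.404 to 6.06 CPM in the Con, 0.250 to 54.4 CPM in the Ade and 0.138 to 250.3 CPM in the Ade + IMC mice, highest in mouse 212, and their part in the results was not tested. Of the cell type markers, 5 of 5 proximal tubule markers and 4 of 4 tested collecting duct markers were lower in the Ade mice compared with Con mice, and 7 of 7 fibroblast, 7 of 7 T cell, 4 of 4 B cell and 5 of 5 macrophage markers were higher. Among the remaining lists, 3 of 4 markers of the thick ascending limb and distal tubule and 2 of 4 of the endothelium were lower, and 1 of 4 of the podocyte and 3 of 5 of the urothelium were higher. Against Con, the Ade + IMC mice had 5 of 5 proximal tubule and 4 of 4 tested collecting duct markers lower. There 7 of 7 fibroblast, 7 of 7 T cell and 4 of 4 B cell markers were higher. So were 5 of 5 macrophage and 4 of 5 urothelium markers. Of the thick ascending limb and distal tubule 2 of 4 were lower. The endothelium had 1 of 4 in each direction and the podocyte 1 of 4 higher. Between Ade + IMC and Ade no marker was called. In whole tissue, fewer cells of a type and less RNA per cell cannot be told apart. Markers of the urothelium, the lining of the renal pelvis, differed within groups as well. They summed to 18.0, 28.3 and 15.3 CPM in Con mice 201, 202 and 301 but to 2.08 and 3.40 CPM in Con mice 302 and 403, and ran from 11.8 to 107 CPM in the Ade and from 6.50 to 118 CPM in the Ade + IMC mice.

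**Figure D1:**
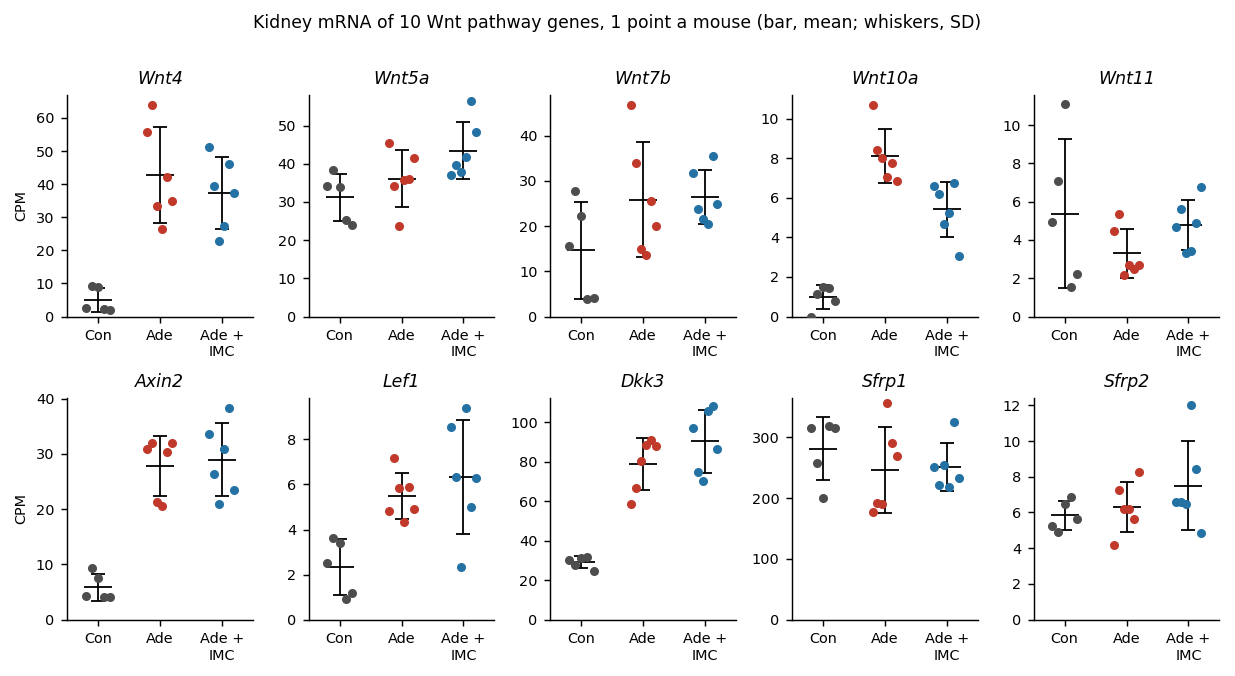
CPM of the 10 genes (y axes, linear from 0) in each of the 17 mice (points) of the Con, Ade and Ade + IMC groups, with the group mean (bar) and SD (whiskers). For Wnt4, Wnt10a, Axin2, Lef1 and Dkk3 every Ade point lies above every Con point, and for Wnt10a every Ade + IMC point lies between these groups.

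Per kilobase of exon, the order of the genes by level changed with the diet. In the Con kidneys Sfrp1 had by far the highest median level, 72.0 CPM per kb, followed by Dkk3 at 9.01, Wnt5a at 4.33, Wnt7b at 3.17 and Sfrp2 at 2.61 CPM per kb. Below them came Wnt11 at 1.20, Axin2 at 0.788, Wnt4 at 0.650, Wnt10a at 0.468 and Lef1 at 0.287 CPM per kb. Only Sfrp1 (45.8 to 73.0) and Dkk3 (7.35 to 9.51) stood clear of the next gene in every Con mouse. Among the genes from Wnt5a down the ranges of neighbours overlapped. In the Ade kidneys Wnt4 had passed 5 genes and stood, with a median of 9.20 CPM per kb, behind Sfrp1 (52.7) and Dkk3 (25.1) only. Axin2 came next at 5.56 CPM per kb. Wnt7b (4.64), Wnt5a (4.59), Wnt10a (3.19) and Sfrp2 (2.88) followed, and Wnt11 (0.654) and Lef1 (0.612) were lowest, with overlapping ranges. In the Ade + IMC kidneys the first places were again Sfrp1 (55.3), Dkk3 (27.3) and Wnt4 (9.15 CPM per kb), and Lef1 was last at 0.719.

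Between the Ade and Con groups, 5 of the 10 genes passed an adjusted p below 0.1 in edgeR's quasi-likelihood test, all 5 higher. The background was wide, since 67.3% of the 14612 genes tested passed in either direction, 35.1% higher and 32.2% lower. The values of the Ade and Con mice did not overlap for the same 5 genes, against 22.4% of all genes with every Ade mouse higher. The median log2 fold change of the 10 genes was 1.06, and that of all genes tested was 0.02.

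Wnt4 (ENSMUSG00000036856, chr4:137277489-137299726, plus strand) encodes the ligand that turns kidney mesenchyme into nephron epithelium in the embryo. Its levels in the Con mice were 2.73, 9.24, 8.94, 2.21 and 1.96 CPM in mice 201, 202, 301, 302 and 403. The Ade mice had at least 26.4, a median of 38.6 and at most 63.9 CPM. The lowest Ade mouse was well above the highest Con mouse. The difference was 8.87-fold (log2 fold change 3.15, SE 0.39, edgeR adjusted p = 1.62e-05).

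Wnt10a (ENSMUSG00000026167, chr1:74791516-74804179, plus strand) encodes a ligand known for its role in teeth and skin appendages. In the Con kidneys it was close to the detection limit, at 0, 1.16, 1.49, 1.43 and 0.784 CPM in mice 201, 202, 301, 302 and 403, or 0 to 11 counts. A count of 0 allows up to 3 counts in a library, which is 0.303 CPM in the largest Con library. The Ade mice had 6.84 to 10.7 CPM with a median of 7.88 CPM (48 to 84 counts). The groups were clearly apart, and the difference was 8.72-fold (log2 fold change 3.12, SE 0.41, edgeR adjusted p = 2.28e-05).

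The other 3 ligands did not pass the threshold. Wnt5a (ENSMUSG00000021994, chr14:28504750-28527448, plus strand), a ligand of the branch without beta-catenin, was expressed at 34.2, 38.4, 33.9, 25.3 and 24.0 CPM in the Con mice in the same order and at 23.7 to 45.5 CPM (median 35.9) in the Ade mice. The groups overlapped throughout, with a log2 fold change of 0.24 (SE 0.16, edgeR adjusted p = 0.207). Without Ade mouse 308, its lowest Ade library, the change was 0.33 and passed at edgeR adjusted p = 0.0501.

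Wnt7b (ENSMUSG00000022382, chr15:85535437-85582473, minus strand), which is made by the collecting duct and needed for the medulla to form, fell into separate levels among the Con mice. Mice 201, 202 and 301 had 15.5, 27.9 and 22.2 CPM, and mice 302 and 403 had 3.90 and 4.05 CPM. The Ade mice had 13.7 to 46.9 CPM (median 22.7), a range that overlapped the first 3 Con mice and lay above the other 2. The log2 fold change over all mice was 0.85 (SE 0.47, edgeR adjusted p = 0.136).

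Wnt11 (ENSMUSG00000015957, chr7:98835112-98855195, plus strand), the ligand of the embryonic ureteric bud tip, showed the same split of the Con mice, with 4.95, 7.08 and 11.1 CPM in mice 201, 202 and 301 and 1.56 and 2.22 CPM in mice 302 and 403. Its Ade values of 2.17 to 5.34 CPM (median 2.71) spanned the gap between these levels and overlapped both. The log2 fold change over all mice was -0.65 (SE 0.43, edgeR adjusted p = 0.207). It was -0.22 without Con mouse 301 (edgeR adjusted p = 0.665) and -0.41 in a fit blocked on the mouse number's leading digit (edgeR adjusted p = 0.444).

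Axin2 (ENSMUSG00000000142, chr11:108920349-108950783, plus strand) encodes a scaffold of the complex that degrades beta-catenin and is itself a widely used readout of beta-catenin signaling. It was measured at 4.34, 9.39, 7.58, 4.16 and 4.05 CPM in Con mice 201, 202, 301, 302 and 403. In the Ade mice it ran from 20.6 to 32.0 CPM with a median of 30.6 CPM. Every Ade mouse was above every Con mouse. The difference was 4.85-fold (log2 fold change 2.28, SE 0.23, edgeR adjusted p = 2.63e-06).

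Lef1 (ENSMUSG00000027985, chr3:131110471-131224356, plus strand) encodes a DNA-binding partner of beta-catenin that is also abundant in T cells. Its Con levels were 2.52, 3.61, 3.39, 0.909 and 1.18 CPM in the same order of mice, again lowest in mice 302 and 403. The Ade mice had 4.33 to 7.16 CPM (median 5.38), above all Con mice. The difference was 2.41-fold (log2 fold change 1.27, SE 0.31, edgeR adjusted p = 0.00285). The summed level of T cell markers was 7.04 to 13.5 CPM in the Con and 52.7 to 187 CPM in the Ade mice, and its part in the Lef1 difference was not tested.

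Dkk3 (ENSMUSG00000030772, chr7:112116017-112159057, minus strand) belongs to the Dickkopf family of secreted proteins and is known as a urinary marker of tubular stress. Its Con values were close together, at 30.3, 27.4, 31.0, 32.0 and 24.7 CPM. The Ade mice had 58.3 to 90.8 CPM (median 84.2), with the groups well apart. The difference was 2.75-fold (log2 fold change 1.46, SE 0.12, edgeR adjusted p = 5.11e-07).

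Sfrp1 and Sfrp2, secreted frizzled-related proteins that bind Wnt ligands outside the cell, did not pass the threshold. Sfrp1 (ENSMUSG00000031548, chr8:23411502-23449632, plus strand) was measured at 315, 258, 200.4, 319 and 315 CPM in the Con mice and at 178 to 356 CPM (median 230.4) in the Ade mice. Its log2 fold change was -0.17 (SE 0.19, edgeR adjusted p = 0.439). Sfrp2 (ENSMUSG00000027996, chr3:83766321-83774316, plus strand) was measured at 5.25, 4.91, 6.50, 6.88 and 5.62 CPM in the Con mice and at 4.19 to 8.26 CPM (median 6.20) in the Ade mice, with a log2 fold change of 0.13 (SE 0.18, edgeR adjusted p = 0.538). Both genes overlapped between the groups.

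**Figure D2:**
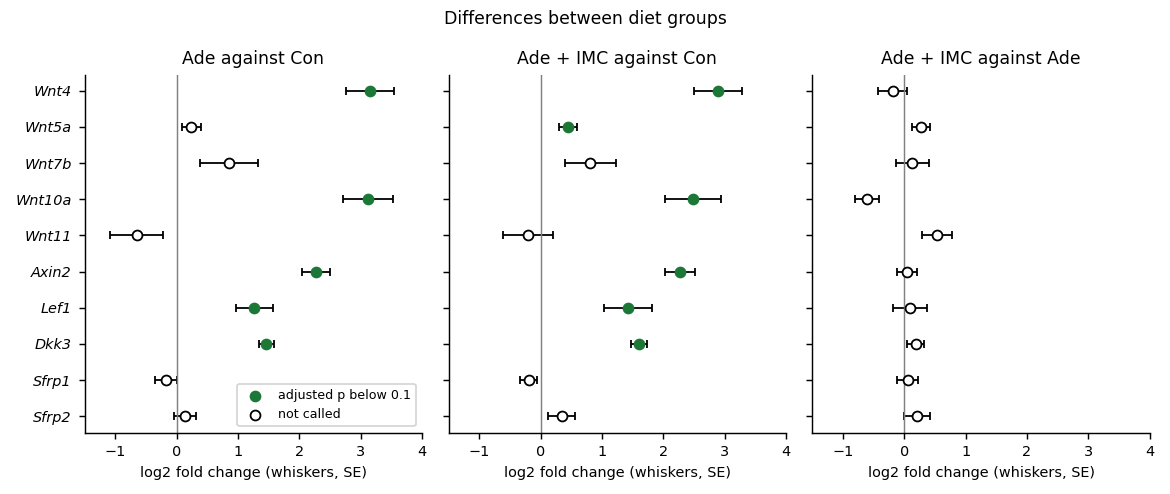
Log2 fold change (x axis) of each of the 10 genes in the 3 comparisons, with its SE (whiskers). Filled points passed an adjusted p below 0.1, which was 5 genes for Ade against Con, 6 for Ade + IMC against Con and 0 for Ade + IMC against Ade.

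The first digit of the mouse number (2, 3 or 4) splits the mice further, although the labels do not say what it marks, and 1 Ade mouse carried a 3 and 1 Con mouse a 4. On the log2(CPM + 1) scale, which understates low genes, the 5 called genes were higher in the Ade mice within each digit. This direction follows from the groups not overlapping for these genes, and only the sizes are given as a description. The within-digit differences were 3.30, 2.60 and 3.56 for Wnt4, 1.87 to 2.84 for Wnt10a, and 2.12, 1.74 and 2.48 for Axin2. They were 0.78, 1.24 and 1.46 for Lef1 and 1.09, 1.33 and 1.81 for Dkk3. Among the uncalled genes Wnt7b (0.90, 0.59 and 1.99) and Sfrp1 (-0.62, -0.41 and -0.05) kept their direction, and with the digit as a block both passed (1.05, edgeR adjusted p = 0.0470, and -0.38, edgeR adjusted p = 0.0447). Wnt11 (-0.24, -0.81 and 0.17), Wnt5a (0.12, -0.29 and 0.63) and Sfrp2 (0.11, -0.10 and 0.20) did not keep theirs.

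Several of the 10 genes were lowest where the urothelial markers were lowest. Con mice 302 and 403, the 2 libraries with the lowest urothelial marker sums of all 17, also had the lowest Wnt7b, Lef1 and Wnt4 levels of all 17. Mouse 302 was the lowest of all for Wnt11, and mouse 403 was above 1 Ade mouse (308) only. With the urothelial marker level added to the fit, a choice made after seeing the data, the log2 fold change of Wnt7b was -0.12 (edgeR adjusted p = 0.726). In the same fit Wnt11 was at -1.48 (edgeR adjusted p = 0.00337). The urothelial level was itself higher in the Ade group, with 3 of 5 markers called and a median log2 fold change of 1.81, so that the fit holds constant a level that moved with the diet. The part of the diet and that of the urothelial level cannot be told apart in it, and all values from it are given as a description. Since mice 302 and 403 are the lowest Con mice for both genes, leaving them out lowers both changes by construction, and the values are given as a description. They were 0.27 for Wnt7b (edgeR adjusted p = 0.553) and -1.18 for Wnt11 (edgeR adjusted p = 0.0108). Without mouse 302 alone Wnt11 was at -0.89 (edgeR adjusted p = 0.0646). With the urothelial level in the fit Wnt5a moved from 0.24 to 0.02 (edgeR adjusted p = 0.912).

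All 5 genes called higher kept their call with the urothelial level in the fit, where the log2 fold changes were 2.46 for Wnt4, 2.99 for Wnt10a, 1.96 for Axin2, 0.83 for Lef1 and 1.62 for Dkk3. Lef1 moved most in proportion, with an edgeR adjusted p of 0.0290. Without Con mice 302 and 403 the changes were 2.68, 3.30, 2.01, 0.82 and 1.43 in that order. These mice are the lowest Con mice for Wnt4, Axin2 and Lef1 as well, so that these 3 changes fall by construction, and the values are a description. Sfrp1 turned from -0.17 to 0.13 with the urothelial level and remained uncalled (edgeR adjusted p = 0.532).

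**Figure D3:**
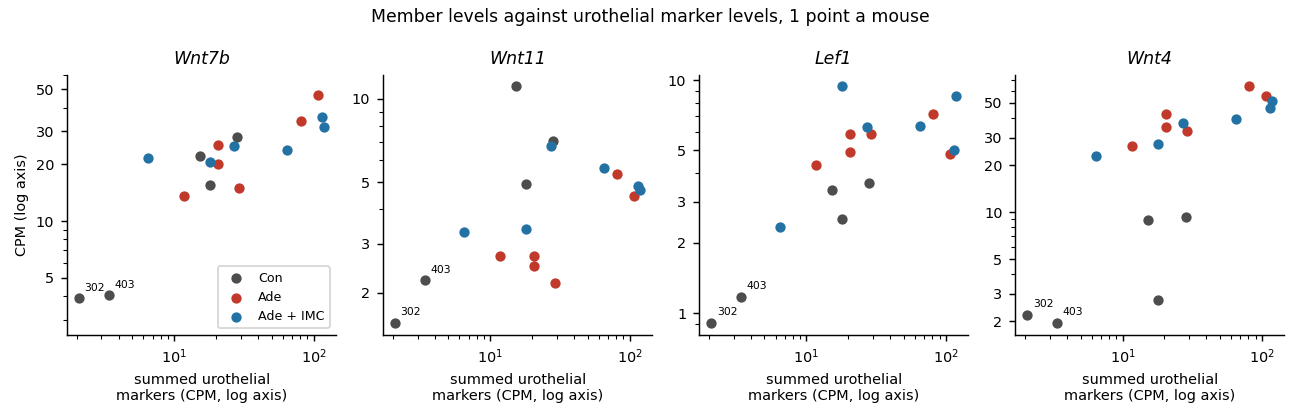
CPM of Wnt7b, Wnt11, Lef1 and Wnt4 (y axes, log scale) against the summed CPM of 5 urothelial markers (x axes, log scale) in 17 mice, coloured by group. Con mice 302 and 403 (labelled) lie at the low end of both axes in each plot, at 2.08 and 3.40 CPM of urothelial markers.

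**Figure D4:**
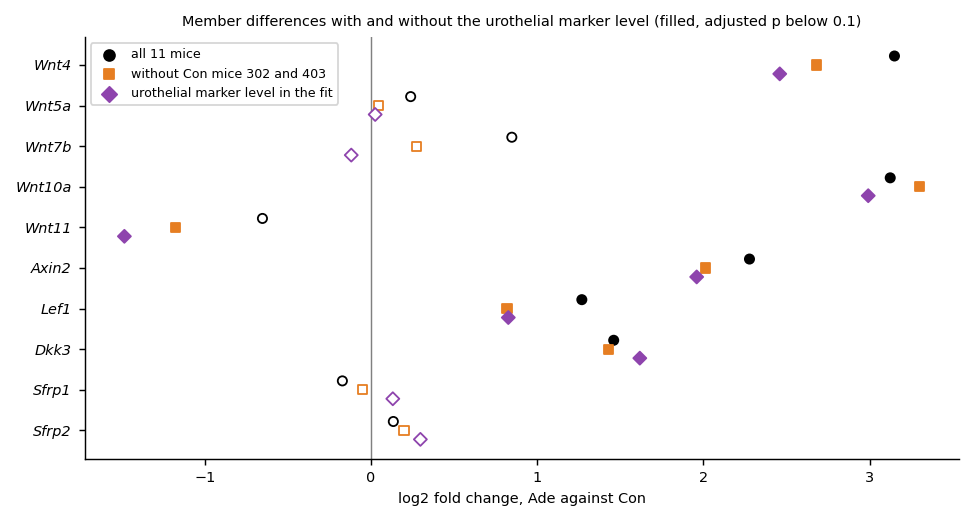
Log2 fold change between the Ade and Con groups (x axis) of each of the 10 genes in 3 fits (circles, all mice; squares, without Con mice 302 and 403; diamonds, with the urothelial marker level in the fit), filled where the adjusted p was below 0.1. Wnt11 moves from -0.65 to -1.18 and -1.48, and Wnt7b from 0.85 to 0.27 and -0.12.

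Between the Ade + IMC and Ade groups 0 of the 10 genes, and 0 of the 14696 genes tested (0%), passed an adjusted p below 0.1 in limma on log2(normalized count + 1). By the other tools, edgeR on the recovered reads called 0 and DESeq2 called 31 genes, and limma blocked on the mouse number's leading digit called 133, none of the 10 among them. The study, using DESeq2 and the same threshold, reported many more genes called in this comparison, in both directions. The reason for this difference was not tested. At an unadjusted p below 0.05 limma found 1 of the 10 genes, against 988 of all genes (6.72%).

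That gene was Wnt10a. Its normalized counts ran from 51.1 to 79.4 (median 58.8) in the Ade mice and from 22.5 to 49.4 (median 42.6) in the Ade + IMC mice. The groups did not overlap, which was the case with the Ade + IMC mice lower for 0.0885% of all genes. The log2 fold change was -0.61 (SE 0.19, unadjusted p = 0.00669, limma adjusted p = 0.711), so that it did not pass after correction over all genes tested. The adjusted p ranged from 0.141 to 0.996 over the alternative fits. Within the first digits 2, 3 and 4 the differences were -0.56, -0.70 and -0.66 on the log2(normalized count + 1) scale. Their direction follows from the groups not overlapping. Relative to the Con group, Wnt10a was 8.72-fold higher in the Ade and 5.60-fold higher in the Ade + IMC mice, both set against the same Con mice.

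The other 9 genes had log2 fold changes between -0.19 and 0.53. The largest was that of Wnt11, whose normalized counts were 16.4 to 40.2 (median 20.2) in the Ade and 24.5 to 49.3 (median 35.3) in the Ade + IMC mice (log2 fold change 0.53, SE 0.25, unadjusted p = 0.0519, limma adjusted p = 0.741). Wnt5a differed by 0.27 (SE 0.15, unadjusted p = 0.0895, limma adjusted p = 0.751), with the groups overlapping. The readouts of beta-catenin signaling had values near 0.

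Axin2 normalized counts were 153 to 241 (median 227) in the Ade and 154 to 281 (median 214) in the Ade + IMC mice, a log2 fold change of 0.04 (SE 0.17, limma adjusted p = 0.975). Lef1 differed by 0.09 (SE 0.28) and Wnt4 by -0.19 (SE 0.23). Lef1 was more spread in the Ade + IMC group, from 17.4 normalized counts in mouse 310 to 70.7 in mouse 311, than in the Ade group, from 32.2 to 53.9. Mouse 310 had the lowest T cell marker sum of its group, 54.7 CPM, and mouse 311 the highest of all mice, 280.5 CPM. Mouse 311 also had the highest Sfrp2 level of all mice, 12.0 CPM. The part of the T cell markers in these values was not tested.

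Against the Con group, 6 of the 10 genes were higher in the Ade + IMC group, where 63.2% of the 14578 genes tested passed (30.9% of all tested were higher and 32.3% lower). Wnt4 was 7.42-fold higher (log2 fold change 2.89, SE 0.40, edgeR adjusted p = 4.92e-05), at 22.8 to 51.1 CPM (median 38.4). Axin2 was 4.84-fold higher (2.28, SE 0.25, edgeR adjusted p = 7.92e-06), at 20.9 to 38.4 CPM (median 28.7). Dkk3 was 3.05-fold higher (1.61, SE 0.13, edgeR adjusted p = 8.53e-07), at 70.2 to 108 CPM (median 91.5).

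Wnt10a, Wnt4, Axin2 and Dkk3 did not overlap between these groups, against 20.5% of all genes with every Ade + IMC mouse higher. Lef1 overlapped through mouse 310, at 2.35 CPM, and was 2.69-fold higher (1.43, SE 0.40, edgeR adjusted p = 0.00771). Wnt5a ran from 37.1 to 56.4 CPM (median 40.7) in the Ade + IMC mice and overlapped 1 Con mouse, a 1.37-fold difference (0.45, SE 0.14, edgeR adjusted p = 0.0163). That call was lost in both fits given above, and mice 302 and 403 are the lowest Con mice for this gene too. Wnt7b (0.81, edgeR adjusted p = 0.116), Wnt11 (-0.20, 0.701), Sfrp1 (-0.20, 0.229) and Sfrp2 (0.34, 0.198) did not pass, the second value of each pair being the edgeR adjusted p. With the urothelial level in the fit Wnt7b was at 0.26 (edgeR adjusted p = 0.557), Wnt11 at -0.73 (edgeR adjusted p = 0.162) and Lef1 at 0.93 (edgeR adjusted p = 0.0740).

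The wider pathway was read from 9 lists of 120 genes, of which 117 were in the files and 107 of these were not among the 10. Of the 90 of these tested between the Ade and Con groups, 32 were higher (35.6%) and 23 lower (25.6%), with a median log2 fold change of 0.03. Over all genes tested 35.1% were higher and 32.2% lower, so the share of pathway genes that were higher was near the background. Genes were tested where their counts allowed it, and the counts of each list below cover the tested genes, the 10 included, to be read against the same background.

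Of 11 tested ligands 4 were higher and 1 lower. The higher ones besides Wnt4 and Wnt10a were Wnt2 (2.83-fold, edgeR adjusted p = 0.00327) and Wnt16 (2.63-fold, edgeR adjusted p = 0.00310), both below 10 counts in every Con mouse. With the urothelial level in the fit Wnt2 was at 0.82 (log2, edgeR adjusted p = 0.0803). Wnt2b was lower (log2 fold change -0.63, 0.0139), a call that did not pass with the urothelial level in the fit (-0.50, 0.113). The median over the list was 0.41. All 4 genes of ligand release were lower. These include Notum, a secreted enzyme that inactivates Wnt proteins (-0.97, edgeR adjusted p = 9.90e-05), the Wnt protease gene Trabd2b (-0.96, 2.35e-05) and Porcn, which attaches the lipid that Wnt proteins need (-0.44, 0.0227). The first 2 of these act against Wnt ligands and Porcn is needed to make them. The remaining gene of the list, Wls, was lower too (-0.69, edgeR adjusted p = 6.42e-05) and was named after its values were seen.

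Of 14 tested receptors 3 were higher and 7 lower, with a median log2 fold change of -0.22. The co-receptor Ptk7 (1.42, edgeR adjusted p = 1.03e-06) and Fzd2 (0.87, 0.000176) rose, Fzd5 fell (-0.76, 3.99e-05), and Fzd4 was 1.99-fold lower (0.00284). In the R-spondin axis, whose secreted proteins keep Frizzled receptors at the cell surface, 2 of 6 genes were higher and 1 was lower. Rspo3 (1.72, 0.00400) and Rspo1 (1.62, 0.000799) rose from at most 8 and 6 counts in the Con mice, and their receptor Lgr4 fell (-0.95, 6.11e-05).

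Of 12 tested secreted and surface inhibitors 6 were higher and 1 lower, with a median of 0.63. Sfrp5 was higher (2.90, edgeR adjusted p = 2.33e-06), and so were its relatives Sfrp4 (1.67, 0.0102) and Frzb (1.94, 2.33e-06), named after their values were seen, while Sfrp1 and Sfrp2 did not pass. Draxin had 3 counts over all Con mice and 59 over all Ade mice, a ratio of 17 with a counting interval of 5.54 to 84.7 (95%, exact, counting error only). Sostdc1 was lower (-0.34, 0.0283). Of 17 genes of the beta-catenin machinery 3 were higher and 4 lower, with a median of -0.12. The kinase gene Csnk1e (1.18, 1.01e-05) and Dvl2 (0.34, 0.00926) rose, and Tnks (-0.47, 0.0413) and Apc (-0.32, 0.0329) fell. With the urothelial level in the fit Dvl2 (0.23, 0.118), Tnks (-0.41, 0.155) and Apc (-0.26, 0.157) kept their direction but did not pass.

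Of 13 TCF/LEF factors and partners 7 were higher and 2 lower, with a median of 0.42. Tcf7, which like Lef1 is abundant in T cells, was 9.57-fold higher (3.26, edgeR adjusted p = 4.03e-07), at 18 to 24 counts in the Con and 154 to 265 in the Ade mice. Pygo1, a cofactor of beta-catenin, was higher (1.23, 0.00161). The corepressor Tle2 (-0.46, 0.000259) and Aes (-0.40, 0.0128) were lower, the latter not with the urothelial level in the fit (-0.23, 0.156).

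Of 17 tested target genes 11 were higher (64.7%, against 35.1% of all genes) and 2 lower (11.8%, against 32.2%), with a median of 1.27. The list was chosen with earlier results known, and this difference in share was not tested. Mmp7, a matrix protease made by injured tubules, had 0 counts in every Con mouse and 99 to 531 in the Ade mice, at least 94.1-fold higher than the limit of 3 counts in the smallest Con library. Cd44, an adhesion receptor also carried by leukocytes, was 21.8-fold higher (4.45, edgeR adjusted p = 3.08e-09). The lower ones were Notum and Sp5 (-0.74, 0.000187), both known targets of beta-catenin like Axin2. Of 13 genes of planar cell polarity 4 were higher, with Vangl2 (0.90, 3.11e-05) and Fat4 (0.56, 0.0172) leading, and 2 were lower, Intu (-0.72, 0.00132) and Celsr2 (-0.36, 0.0117), with a median of 0.03. Without Con mice 302 and 403 Fat4 was at 0.36 (0.128) and did not pass, a fit that leaves out its lowest Con value (8.10 CPM, in mouse 403) and so lowers the change by construction.

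**Figure D5:**
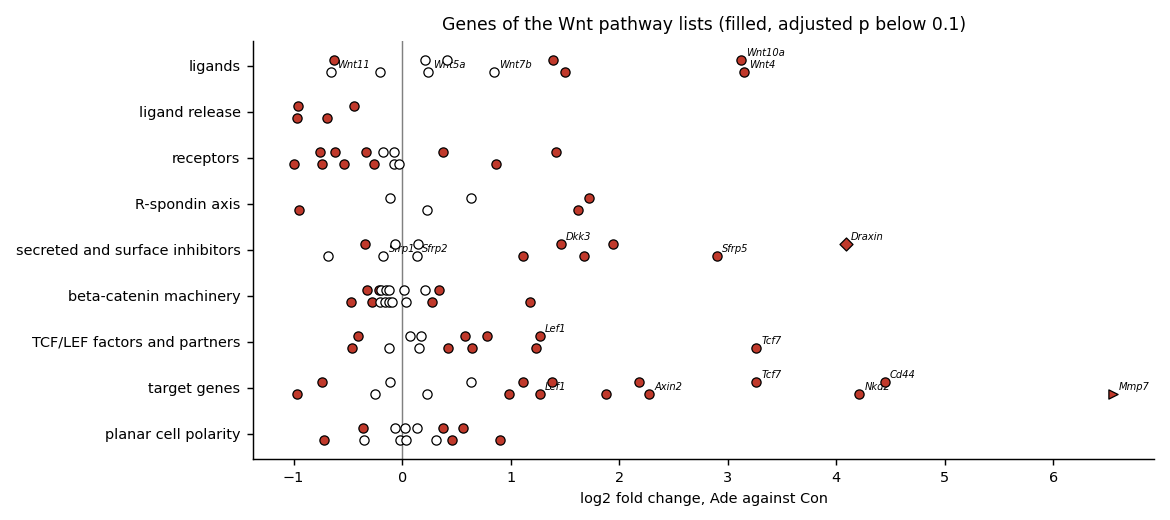
Log2 fold change between the Ade and Con groups (x axis) of each tested gene of 9 pathway lists (rows), filled where the adjusted p was below 0.1. Target genes reach furthest to the right; the triangle marks Mmp7 at its lower bound and the diamond Draxin at its count ratio.

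Between the Ade + IMC and Ade groups 0 of the 100 tested pathway genes passed in limma, and 7 had an unadjusted p below 0.05 (7% of them, against 6.72% of all genes), of which 2 were higher and 5 lower. The lists differed in this share. Of the 17 target genes 4 (23.5%) had such a p, all lower (Myc, Mmp7, Cd44 and Nkd2), and the difference from the background was not tested. The gene with the smallest unadjusted p among the targets was Myc, with a log2 fold change of -0.53 (limma adjusted p = 0.711). In the fit with the block Myc was the only pathway gene called (-0.63, limma adjusted p = 0.0599). Mmp7 (-1.03) and Cd44 (-0.59) followed (limma adjusted p = 0.711 and 0.731), and Nkd2, named after its values were seen, was at -0.36 (limma adjusted p = 0.715). Myc was 3.67-fold higher in the Ade and 2.42-fold higher in the Ade + IMC than in the same Con mice. Among the ligands it was, after Wnt10a, Wnt9b (log2 fold change 0.79, limma adjusted p = 0.715), which the ureteric epithelium uses to induce nephrons, and in planar cell polarity Daam2 (0.54, limma adjusted p = 0.731). In the other lists it was Ror2 (0.33) among receptors, Sfrp5 (-0.63) among inhibitors and Porcn (0.29) in ligand release. For the nuclear factors it was Tle1 (0.20), for the machinery Dvl2 (0.18) and for the R-spondin axis Rnf43 (0.26), each with a limma adjusted p of at least 0.742. Against the Con group, 37 of 97 tested pathway genes were higher (38.1%, against 30.9% of all genes) and 25 lower (25.8%, against 32.3%) in the Ade + IMC mice. With the 10 genes left out, 31 of 87 were higher (35.6%) and 25 lower (28.7%).

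Promoter windows of the RefSeq annotation (GRCm38.p6, 250 bases before to 50 after a start) were found for 5 of the 10 genes, with 9 windows in all (Wnt4, Wnt11, Axin2, Lef1 and Sfrp2). The letters CTTTGA, the core bound by TCF/LEF factors, and their reverse complement TCAAAG were looked for on both strands. They occurred in 16% of all 32851 windows, and the longer form CTTTGAT, which contains the first, in 3.73%. The windows of Wnt4, Axin2 and Sfrp2 held no match. Matches were found at 1 of 2 Wnt11 starts and 1 of 4 Lef1 starts, and the bases around them are shown because they are the ones with these letters.

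In the sequences, read 5′ to 3′ on the plus strand, capitals mark the match. The Wnt11 stretch (chr7:98835017-98835111) ends at the last base before the start, with the match 50 bases before it and within the longer form. The Lef1 stretch (chr3:131156069-131156188) lies inside the gene, in an intron of the longer transcripts, before another annotated start, with matches 180 and 120 bases before that start.
Wnt11: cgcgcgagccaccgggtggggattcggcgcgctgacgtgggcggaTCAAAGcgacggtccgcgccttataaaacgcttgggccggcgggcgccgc
Lef1: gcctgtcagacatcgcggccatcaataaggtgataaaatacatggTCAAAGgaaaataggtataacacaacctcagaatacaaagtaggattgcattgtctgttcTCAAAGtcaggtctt

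A match of letters is a description and does not mark a bound site. Exons of Wnt5a, Wnt7b, Wnt11, Axin2, Lef1 and Sfrp2 share between 209 and 1208 bases with a gene on the other strand (Axin2 the fewest, Lef1 the most). As the use of strand in counting is not given in the sources used here, reads of these genes and of their antisense partners could not be told apart. Wnt4, Wnt10a, Dkk3 and Sfrp1 share none.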

How the data were processed

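RNA-seq of whole kidney was analysed from 17 of 21 mice (5 Con, 6 Ade, 6 Ade + IMC). Groups were taken from the sample labels and diets from the methods of the study. The authors deposited raw counts per gene for the Con and Ade mice. For the Ade and Ade + IMC mice they deposited a signal, the count divided by DESeq2's median of ratios size factor. The methods name STAR and the mm10 genome, while the submitters' processing notes name Trimmomatic 0.39, Bowtie2 2.2.5 and HTSeq 0.9.1. Which aligner made the tables could not be settled. A further table holds the authors' log2 fold change, Wald score and p-value with its adjusted value for their Ade + IMC and Ade comparison, and only its gene names were used.

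All deposited normalized values were whole multiples of 1 read (100% within 1e-06), so that reads were recovered, and these differed from the raw counts in 0 genes of the Ade mice. Ade was compared with Con (14612 genes) and Ade + IMC with Con (14578) by edgeR 4.0.16 (quasi-likelihood test, TMM, its own filter on low counts). Ade + IMC was compared with Ade (14696 genes, mean of at least 10) with limma 3.58.1, using log2(normalized count + 1) and a mean-variance trend. DESeq2 1.42.0 was an alternative, in R 4.3.3. A call required a Benjamini-Hochberg adjusted p below 0.1, the threshold of the study. CPM used TMM-scaled library sizes, and CPM per kb the exon union of GENCODE M21 (GRCm38). No gene of the 10 was removed by a filter. Libraries of a group all differed by more than counting noise, the smallest chi-square divided by its degrees of freedom being 4.21. Scripts were tested on simulated data.

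The 10 genes, the pathway lists and the marker lists were chosen with earlier results of these data known. The text names all 10 genes and, from each pathway list, up to 2 called genes with the largest rise and 2 with the largest fall in Ade against Con, and the gene with the smallest p in Ade + IMC against Ade. Sfrp4, Frzb, Nkd2 and Wls fall outside this rule and were named after their values were seen. The urothelial covariate and the fit without Con mice 302 and 403 were added after the data were seen. The other alternatives changed the tool, scaling, filter, pseudocount, threshold, block and the mice included. Gene identifiers, coordinates and strands are those of GENCODE M21. Promoter sequences are those of RefSeq.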

Additional observations from a re-analysis of the deposited data

Results flagged for a closer look

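Among the 30 sets of values of the 10 genes in 3 groups, 1 held a mouse far from the others. Sfrp1 in Ade + IMC mouse 410 was at 325 CPM, while the other 5 mice of the group had 218 to 255 CPM, and the gap was 0.654 of the whole range. Chance alone flags about 1 in 20 such sets, or 1.5 of 30. Mouse 410 also had the highest podocyte (1345 CPM) and endothelium (582 CPM) marker sums of all mice. Its urothelial marker sum was 1 of the 2 highest of its group, at 114 CPM. Mouse 211, with 118 CPM of urothelial markers, had 251 CPM of Sfrp1. The part of these markers in the Sfrp1 value was not tested. Without this mouse Sfrp1 was called lower in the Ade + IMC than in the Con group (log2 fold change -0.27, edgeR adjusted p = 0.0825).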

How the results depend on the processing

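In Ade against Con, the calls of Wnt4, Wnt10a, Axin2, Lef1 and Dkk3 held in each alternative run, with each mouse left out in turn and at an adjusted p below 0.05. The number of the 10 genes called lower was 0 but became 1 with the replicate block by the first digit of the mouse number (Sfrp1, -0.38, edgeR adjusted p = 0.0447), 1 with the urothelial covariate and 1 without Con mice 302 and 403 (Wnt11), and ran from 0 to 1 with a mouse left out. Wnt7b passed in the block fit (1.05, 0.0470), in 1 fit of all 17 mice (0.84, 0.0967), without Con mouse 202 (1.20, 0.0518) and without Ade mouse 407 (0.97, 0.0904). Tnks lost its call without Con mouse 201 (-0.38, 0.115) or 302 (-0.40, 0.105). With the urothelial covariate Wnt7b (-0.12) and Sfrp1 (0.13) turned direction. The replicate block did not change another call among the 10 genes in this comparison. The digit is no proven pairing. Deviations of same-digit mice correlated at a median r of 0.04 in this comparison, 0.19 (-0.26 to 0.50) in Ade + IMC against Ade and 0.03 in Ade + IMC against Con. For mice of different digits the median r was -0.01, -0.07 and 0.01 in that order.

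In Ade + IMC against Ade, the number of genes called was 0 but 31 by DESeq2 and 133 with the replicate block, with 1 pathway gene lower (Myc, -0.63, limma adjusted p = 0.0599) and none of the 10. At an unadjusted p below 0.05 it was 988, with 1 of the 10 lower and 2 pathway genes higher and 5 lower. Directions near 0 turned: Wnt7b was -0.0019 by edgeR and ran from -0.030 to 0.32 with a mouse left out, Axin2 from -0.046 to 0.13, Lef1 from -0.053 to 0.34 and Sfrp1 from -0.034 to 0.17.

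In Ade + IMC against Con, the number of the 10 called lower was 0 but 1 without Con mice 302 and 403 (Wnt11, -0.73, edgeR adjusted p = 0.0610), and ran from 0 to 1 with a mouse left out (Sfrp1 without Con mouse 301, -0.30, 0.0467, or Ade + IMC mouse 410, -0.27, 0.0825). Wnt11 ran from -0.44 to 0.24, the latter without Con mouse 301. Wnt7b passed with upper-quartile scaling (0.88, 0.0943), with the block (0.93, 0.0943) and without Con mouse 202 (1.17, 0.0351), Con mouse 301 (1.01, 0.0847) or Ade + IMC mouse 311 (0.88, 0.0948). Sfrp2 passed without Ade + IMC mouse 412 (0.48, 0.0583). The mice left out here lay high or low in their group for the gene named, so that these changes moved by construction. The cause of the changes with scaling and block was not tested. Low counts limit Wnt10a in the Con mice (0 to 11 counts) and Lef1 in Con mouse 302 (7 counts).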
